A study of Arabidopsis thaliana with 4 samples.

Results

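Chloroplasts keep a small genome of their own, and many of its genes encode subunits of the photosynthetic machinery. The 45 chloroplast gene entries described here were chosen by identity, as the psa, psb, pet, atp, ndh and rbcL genes of the chloroplast, out of 38194 entries in the gene table. They comprise 15 genes of photosystem II, 5 of photosystem I, 6 of the cytochrome b6f complex, 6 of the ATP synthase, 12 entries of the NDH complex and rbcL. Both copies of ndhB were listed, so the 45 entries carry 44 gene symbols.

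What was counted is the small RNA that maps to these genes in Arabidopsis thaliana seedlings 10 days after germination. PORI libraries served as controls, and the comparison group was PORI combined with rpt2a, with 2 libraries in each group. RPT2a belongs to the ring of ATPases at the base of the proteasome cap, which unfolds tagged proteins so that they can be degraded. PORI is common to both groups, and neither its meaning nor the rpt2a allele is spelled out in the labels. Nothing in the labels says that the 2 libraries of a group came from separate plants or cultures, so p-values reflect how far these particular libraries vary, and that variation may be technical. The samples were whole seedlings, in which fewer green cells and less chloroplast RNA per cell cannot be told apart.

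Photosystem II takes electrons from water with light energy, the cytochrome b6f complex passes them on towards photosystem I, and the proton gradient built on the way drives the ATP synthase. The NDH complex returns electrons from the stroma to the electron transport chain in a cyclic route. The large subunit of Rubisco, encoded by rbcL, fixes carbon dioxide. Chloroplast genes are transcribed largely in groups from shared promoters, and the transcripts are then cut and trimmed. Short RNAs from chloroplasts include breakdown fragments of these transcripts, and short stretches at transcript ends that RNA-binding proteins shield from nucleases. Read positions were not part of the tables used here, so reads are described by gene and length only.

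Library depth in the gene table was 4696170 counts for PORI replicate 1 and 4038459 for replicate 2, and for PORI rpt2a it was 4806891 (replicate 1) and 2886928 (replicate 2). RPT2a itself (AT4G29040) had 27 and 21 counts in PORI, against 38 and 8 in PORI rpt2a, and such fragment counts do not measure its transcript. PORI rpt2a replicate 2 stood apart from the other libraries. It was the shallowest, its TMM factor (a scaling factor that edgeR computes from the bulk of the genes) was 0.696 against 1.02 to 1.23, and among gene reads outside the chloroplast 41.2% were of 18 to 20 nt, against 26.5 to 30.3% in the other libraries. Root transcripts (PYK10 and PBP1) took 0.00498% and 0.00530% of gene counts in PORI, against 0.00329% and 0.00194% in PORI rpt2a, and transcripts of 4 seed storage genes had 5 counts over all libraries. The part of tissue composition, depth and read length in the differences below was not tested. Values are given per library, and a fold change or median that moved by more than 1.5 times without PORI rpt2a replicate 2 is followed by its value without that library.

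The photosynthesis genes took a smaller share of the gene counts in PORI rpt2a than in PORI. Their summed counts were 71994 and 54050 in PORI, against 60880 and 22836 in PORI rpt2a. As a share of all gene counts this was 1.53% and 1.34% in PORI, against 1.27% and 0.791% in PORI rpt2a. Both PORI rpt2a libraries lay below both PORI libraries, by 0.407 percentage points on average (exact two-sided permutation p = 0.333, the smallest p that 2 against 2 libraries allow). Without PORI rpt2a replicate 2 the difference was -0.169 percentage points. It was largest in the library that stands apart, and PORI rpt2a replicate 1 on its own lay close to the lower PORI library. These shares are not scaled by TMM factors. With TMM scaling, the median log2 ratio of the entries to the PORI mean was -0.41 in PORI rpt2a replicate 1 and -0.44 in replicate 2, so the libraries were alike there. Within the counts of all 134 chloroplast entries, most of which fell on other genes, the photosynthesis genes held 7.93% and 7.12% in PORI, against 7.24% and 5.58% in PORI rpt2a, so the groups overlapped there (exact permutation p = 0.667).

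Gene by gene, the differences pointed mostly one way, and none of them passed the test over all genes. All 45 entries passed the filter on low counts. With edgeR's quasi-likelihood test and Benjamini-Hochberg adjustment over the 8110 genes tested, 0 of 45 entries passed an adjusted p of 0.05. The threshold was passed by 0.0247% of all genes tested, and read against that rate a count of 0 is no result about these entries. At an unadjusted p under 0.05 the count was 3 of 45 (psbK, ndhC and ndhK), against 1868 of all genes tested (23%), and DESeq2 called 0 of 45 and 556 over all genes. The log2 fold change of PORI rpt2a over PORI was below 0 for 41 of 45 entries, with a median of -0.44. All tested genes had a median of -0.036 (0.028 without PORI rpt2a replicate 2), and 4166 of 8110 lay below 0. The median of the 45 entries held in each PORI rpt2a library taken alone, at -0.41 in replicate 1 and -0.44 in replicate 2, as log2 ratios to the PORI mean.

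In CPM, which are counts scaled to a common TMM-normalised library size, both PORI rpt2a libraries lay below both PORI libraries for 34 of 45 entries, against 29.6% of all tested genes. None of the 45 lay above both PORI libraries, against 27.5% of all tested genes, and 11 overlapped. Genes on 1 transcript share their source, so these 45 entries are not independent of each other.

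**Figure D1:**
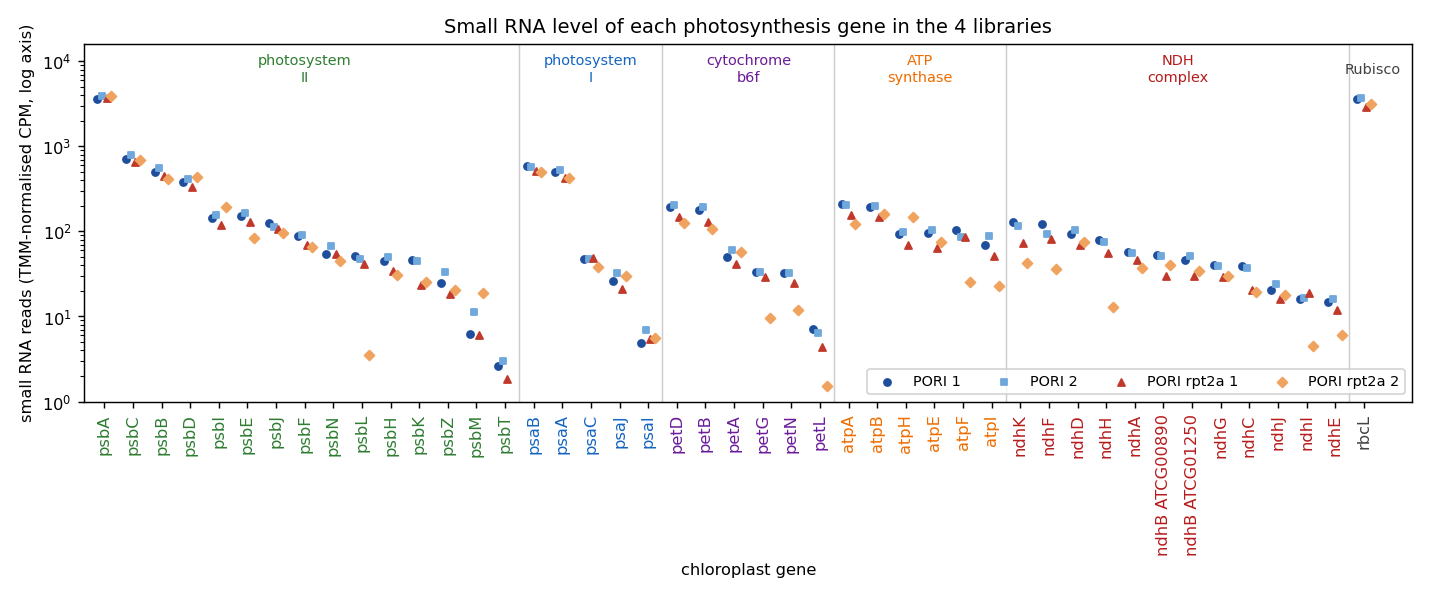
Small RNA level of each photosynthesis gene in the 4 libraries, as TMM-normalised CPM on a log axis, with 1 point per library and genes ordered by counts within each complex. psbA and rbcL stand above all other genes in every library, and the points of PORI rpt2a replicate 2 spread far below the rest for psbL, ndhH and petL (psbT has 0 counts in that library and is not drawn there).

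Read counts were concentrated in a few genes. Counts are not divided by gene length, so they give the make-up of the libraries and do not rank expression. Summed over the libraries, the entries held between 37 counts (psbT) and 64440 counts (psbA), with a median of 1086, and the 10 entries with most counts held 84.0% of the 209760 counts. The median log2 fold change of these 10 was -0.27, against -0.57 for the other 35. Over the 45 entries, Spearman's rho between counts and fold change was 0.313, given as a description, since the values come from the same 4 libraries.

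Photosystem II contributed the gene with most counts and the widest range of differences. psbA (ATCG00020) encodes the D1 protein of the reaction centre, which is damaged by light and replaced continually. Its level was 3587 and 3870 CPM in PORI, against 3754 and 3957 CPM in PORI rpt2a. The groups overlapped. The log2 fold change was 0.048 ± 0.44 (SE, n = 2 libraries per group, edgeR adjusted p = 0.960, and 0.091 without PORI rpt2a replicate 2). With scaling to the total of the 3 tables this sign turned, to -0.19.

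psbC, which encodes the core antenna protein CP43, stood at 717 and 796 CPM in PORI, against 660 and 683 CPM in PORI rpt2a. Both PORI rpt2a libraries lay lower, by less than the standard error of the fit (log2 fold change -0.17 ± 0.37, edgeR adjusted p = 0.815). psbB, for the other core antenna protein CP47, stood at 496 and 563 CPM against 446 and 410 CPM (log2 fold change -0.31 ± 0.36, edgeR adjusted p = 0.647, and -0.17 without PORI rpt2a replicate 2). psbD, for the reaction centre protein D2, overlaps psbC in the chloroplast genome, so reads of the shared stretch could have gone to either entry, and its levels of 384 and 419 CPM in PORI overlapped with 337 and 435 CPM in PORI rpt2a.

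Among the small subunits of photosystem II, psbK (ATCG00070) differed most evenly. It had 259 and 181 counts in PORI, against 129 and 51 counts in PORI rpt2a, or 45.7 and 44.6 CPM against 23.6 and 25.6 CPM. The PORI libraries were close to each other, as were the PORI rpt2a libraries, and the groups were far apart beside that spread (log2 fold change -0.88 ± 0.28, edgeR adjusted p = 0.140). Over all genes tested, this p did not pass.

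psbL behaved differently, with 51.5 and 47.6 CPM in PORI, 41.9 CPM in PORI rpt2a replicate 1 and 3.51 CPM in PORI rpt2a replicate 2. The last value rests on 7 counts, against 193 to 292 in the other libraries, and the log2 fold change of -1.07 ± 0.89 (edgeR adjusted p = 0.518) was -0.16 without that library. psbE, psbF, psbL and psbJ lie next to each other and are transcribed together, with psbE and psbF encoding cytochrome b559, yet psbF in PORI rpt2a replicate 2 was at 66.2 CPM, close to the 70.0 CPM of replicate 1. psbM ran the other way in the same library, at 19.1 CPM against 6.03 to 11.3 CPM in the others, on 33 to 46 counts per library (log2 fold change 0.47 ± 0.65, edgeR adjusted p = 0.707, and -0.44 without that library). psbI, a small reaction centre subunit, stood at 145 and 156 CPM in PORI, against 119 and 191 CPM in PORI rpt2a, with PORI between the PORI rpt2a libraries (log2 fold change 0.040 ± 0.37, edgeR adjusted p = 0.961, and -0.26 without replicate 2).

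Over the 15 photosystem II genes the median log2 fold change was -0.31, with 12 below 0. In 10 of them both PORI rpt2a libraries lay below both PORI libraries, against 29.6% of all tested genes. Without TMM factors this held for 12 of them, against 2795 of all 8110 tested genes. psbN lies on the strand opposite to psbT and psbH. Use of strand in the counting was not given in the sources used here, so counts of psbN, psbT and psbH may include reads from the opposite strand.

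Photosystem I genes had a median of -0.21 over 5 genes, with all 5 below 0 and 2 without overlap between the groups, a share near the 29.6% of all tested genes. The median was -0.11 without PORI rpt2a replicate 2 and -0.073 without PORI replicate 2. Those 2 were psaA and psaB, which encode the reaction centre pair. psaB stood at 595 and 575 CPM in PORI, against 513 and 500 CPM in PORI rpt2a (log2 fold change -0.21 ± 0.36, edgeR adjusted p = 0.767, and -0.11 without PORI rpt2a replicate 2). psaA stood at 496 and 528 CPM in PORI, against 425 and 431 CPM in PORI rpt2a (log2 fold change -0.26 ± 0.35, edgeR adjusted p = 0.701). psaC, whose product carries iron-sulphur clusters on the stromal side, was at 47.8 and 47.6 CPM against 48.6 and 38.1 CPM, with PORI rpt2a on both sides of PORI.

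In the cytochrome b6f complex, all 6 genes lay below 0, with a median of -0.71. In 5 of them both PORI rpt2a libraries lay below both PORI libraries, against 29.6% of all tested genes. petB, for cytochrome b6, stood at 181 and 195 CPM in PORI, against 128 and 106 CPM in PORI rpt2a (log2 fold change -0.69 ± 0.32, edgeR adjusted p = 0.276). petD, for subunit IV, stood at 196 and 204 CPM in PORI, against 146 and 125 CPM in PORI rpt2a (log2 fold change -0.56 ± 0.32, edgeR adjusted p = 0.359, and -0.37 without PORI rpt2a replicate 2). Both genes lay lower in each PORI rpt2a library by more than the PORI libraries differed from each other. petA, for cytochrome f, overlapped between the groups, at 50.6 and 60.4 CPM in PORI, against 41.5 and 57.7 CPM in PORI rpt2a. The complex's median ratio to PORI was -0.44 in PORI rpt2a replicate 1 and -1.09 in replicate 2 on the log2 scale, and the fitted median was -0.36 without replicate 2. The small subunit genes petG, petL and petN had 19, 3 and 24 counts in replicate 2.

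ATP synthase genes had a median of -0.55 (-0.37 without PORI rpt2a replicate 2), with 5 of 6 below 0. The same 5 had both PORI rpt2a libraries below both PORI libraries, against 29.6% of all tested genes. Without TMM factors this held for 4 of 6, against 2795 of all 8110 tested genes. atpA and atpB encode the alpha and beta subunits of the catalytic head. atpA stood at 210 and 206 CPM in PORI (208 ± 2.83, mean ± SD, n = 2), against 158 and 121 CPM in PORI rpt2a (139.5 ± 25.5), a log2 fold change of -0.58 ± 0.34 (SE, edgeR adjusted p = 0.362, and -0.32 without PORI rpt2a replicate 2). atpB stood at 196 and 200.1 CPM in PORI, against 148 and 162 CPM in PORI rpt2a (log2 fold change -0.35 ± 0.32, edgeR adjusted p = 0.551). The spread between the PORI libraries was small beside the gap in both genes.

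atpI (ATCG00150), for a subunit of the membrane part, had 393 and 362 counts in PORI, against 285 and 46 in PORI rpt2a. Its log2 fold change was -1.06 ± 0.45 (edgeR adjusted p = 0.227), at 69.3 and 89.3 CPM against 52.1 and 23.1 CPM, and without PORI rpt2a replicate 2 it was -0.53. atpH, for the ring of the membrane part, was the exception in this complex, at 92.5 and 98.2 CPM in PORI, against 68.4 and 146 CPM in PORI rpt2a (log2 fold change 0.16 ± 0.43, edgeR adjusted p = 0.843). Its PORI rpt2a libraries lay on both sides of PORI, and without replicate 2 the log2 fold change was -0.40.

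Every one of the 12 NDH entries lay below 0, with a median of -0.59. In 11 of them, both ndhB copies included, both PORI rpt2a libraries lay below both PORI libraries, against 29.6% of all tested genes. ndhC (ATCG00440), for a membrane subunit, had the smallest p of the 45 entries. It had 221 and 151 counts in PORI, against 112 and 39 in PORI rpt2a, or 39.0 and 37.2 CPM (38.1 ± 1.24, mean ± SD, n = 2) against 20.5 and 19.6 CPM (20.02 ± 0.636). The log2 fold change was -0.93 ± 0.29 (SE, edgeR adjusted p = 0.131), larger than the spread between replicates but not past the threshold.

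ndhK (ATCG00430), which overlaps ndhC and lies on the same transcript, stood at 130.05 and 115 CPM in PORI, against 73.1 and 42.7 CPM in PORI rpt2a (log2 fold change -1.08 ± 0.37, edgeR adjusted p = 0.162). ndhF (ATCG01010), a membrane subunit, stood at 122 and 93.0 CPM in PORI, against 81.0 and 36.1 CPM in PORI rpt2a (log2 fold change -0.87 ± 0.45, edgeR adjusted p = 0.314). ndhH (ATCG01110), a subunit of the stromal arm, stood at 79.9 and 75.7 CPM in PORI, 55.2 CPM in PORI rpt2a replicate 1 and 13.0 CPM in replicate 2 (log2 fold change -1.16 ± 0.63, edgeR adjusted p = 0.328). In these genes replicate 1 lay below PORI and replicate 2 lay further below. Without PORI rpt2a replicate 2 the log2 fold change was -0.66 for ndhK, -0.33 for ndhF and -0.41 for ndhH.

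The ndhB copies lie in the inverted repeat of the chloroplast genome, so their reads cannot be assigned to one of them with certainty. ATCG00890 had 298 and 207 counts in PORI, against 163 and 80 in PORI rpt2a (log2 fold change -0.57 ± 0.31, edgeR adjusted p = 0.322). ATCG01250 had 260 and 208 against 162 and 68 (log2 fold change -0.61 ± 0.29, edgeR adjusted p = 0.277). They are 2 entries of 1 sequence and give no separate evidence.

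rbcL (ATCG00490), second to psbA in counts, stood at 3631 and 3714 CPM in PORI (3672 ± 58.4, mean ± SD, n = 2), against 2881 and 3166 CPM in PORI rpt2a (3024 ± 202). Both PORI rpt2a libraries lay lower, with a log2 fold change of -0.28 ± 0.44 (SE, edgeR adjusted p = 0.739).

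**Figure D2:**
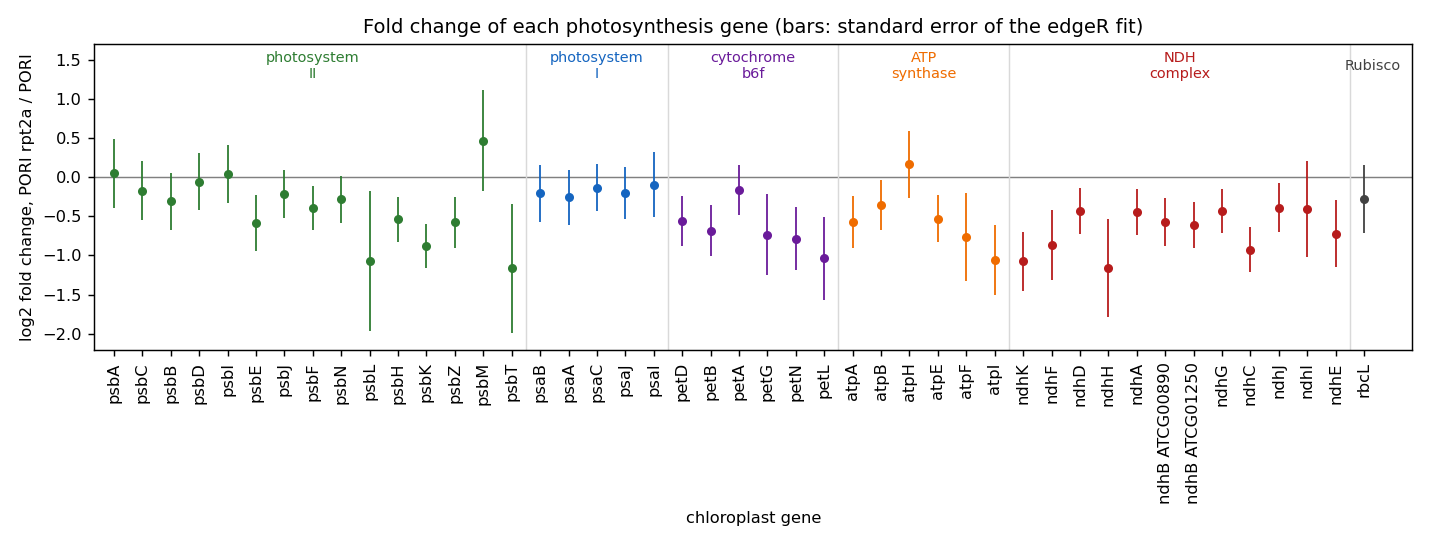
Log2 fold change of PORI rpt2a over PORI for each photosynthesis gene, grouped by complex, where points are edgeR estimates and bars are standard errors (2 libraries per group). 41 of 45 points lie below 0, the 12 NDH points among them, and psbA, psbI, psbM and atpH lie above it.

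Calls appeared when PORI rpt2a replicate 1 was left out, so that replicate 2 alone stood for its genotype and was assumed to vary like PORI. Then 13 of 45 entries passed as lower and 1 as higher with edgeR, against 13.5% of all tested genes lower and 16.1% higher. The entries that passed as lower were psbL, ndhH, petL, atpF, ndhI, petG, atpI, ndhF, ndhK, petN, ndhE, ndhC and psbE, from -3.75 (psbL) to -0.88 (psbE) on the log2 scale, and psbM passed as higher at 1.19. These calls describe 1 library. Without replicate 2, 0 of 45 passed with edgeR, against 2.08% of all tested genes lower and 11.2% higher. In that fit 42 of 45 lay below 0 and the median was -0.33. The genes tested in the reported fit had a median of 0.028 in it, with 3958 of them below 0.

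Differences between complexes were examined as shares within the summed counts of the 45 entries, which do not depend on the scaling between libraries. Photosystem II held 46.6% and 48.2% of these counts in PORI, against 52.1% and 52.9% in PORI rpt2a. The NDH complex held 5.60% and 5.09% in PORI, against 4.32% and 3.11% in PORI rpt2a. In both, the groups did not overlap, with photosystem II higher and the NDH complex lower in PORI rpt2a.

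The ATP synthase held 6.04% and 5.89% in PORI, against 5.17% and 4.83% in PORI rpt2a. The cytochrome b6f complex held 3.94% and 3.99% in PORI, against 3.36% and 2.72% in PORI rpt2a. rbcL held 28.6% and 27.9% in PORI, against 25.9% and 27.6% in PORI rpt2a. All of these were lower in both PORI rpt2a libraries, rbcL by a margin near its spread, while photosystem I overlapped at 9.21% and 8.93% in PORI, against 9.10% and 8.77% in PORI rpt2a. The exact permutation p was 0.333 for 5 complexes, the smallest possible, and 0.667 for photosystem I (0.400 and 0.667 adjusted over the 6 complexes).

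**Figure D3:**
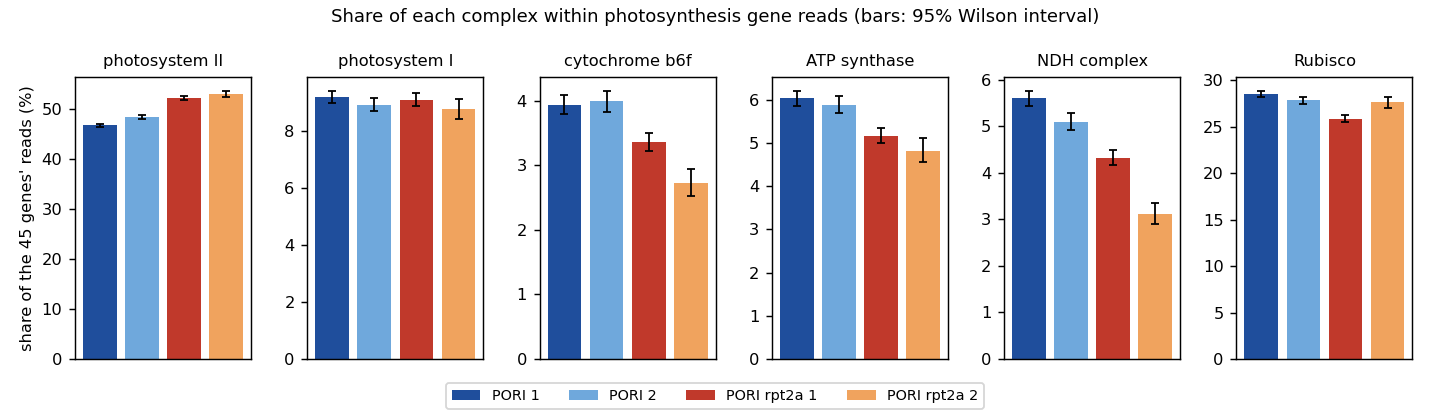
Share of each complex, in percent, within the summed counts of the 45 photosynthesis entries, with 1 bar per library, 95% Wilson intervals that cover counting error only, and a separate vertical scale from 0 in each panel. Photosystem II is higher in both PORI rpt2a libraries, at 52.1% and 52.9%, and the NDH complex is lower, at 4.32% and 3.11%.

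One gene bore on this picture. psbA alone held 28.2% and 29.0% of the counts in PORI, against 33.7% and 34.5% in PORI rpt2a. Without psbA, photosystem II held 25.6% and 27.1% against 27.8% and 28.1%. Photosystem I and rbcL turned from lower to higher in the mean, by 0.860 and 1.098 percentage points. Photosystem I held 12.8% and 12.6% in PORI, against 13.7% and 13.4% in PORI rpt2a. rbcL overlapped, at 39.8% and 39.2% in PORI, against 39.1% and 42.2% in PORI rpt2a. Its higher mean rested on PORI rpt2a replicate 2. The NDH complex, at 7.80% and 7.18% against 6.52% and 4.76%, the ATP synthase, at 8.42% and 8.30% against 7.81% and 7.37%, and the cytochrome b6f complex, at 5.49% and 5.62% against 5.07% and 4.16%, remained lower in both PORI rpt2a libraries.

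Other genes of the pathway were taken as lists. A set of 4 chloroplast genes, made up of ycf3 and ycf4 (photosystem I assembly), ccsA (cytochrome c maturation) and cemA (an envelope membrane protein), had a median log2 fold change of -0.72, with 4 of 4 below 0. The chloroplast's own RNA polymerase genes had a median of -0.84, with 4 of 4 below 0, and its ribosomal protein genes had -0.75, with 22 of 23 below 0 and 19 with both PORI rpt2a libraries below both PORI libraries, against 29.6% of all tested genes. Without PORI rpt2a replicate 2 the ribosomal protein genes had a median of -0.49. Lower values were thus also found in chloroplast genes outside photosynthesis. With edgeR and with DESeq2, 0 genes of these 3 lists passed the threshold, against 0.0247% and 556 of all 8110 tested genes. At an unadjusted edgeR p under 0.05 there were 2 of the set of 4, 3 of 4 polymerase genes and 4 of 23 ribosomal protein genes. Over all tested genes that share was 23%.

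In the reported fit, the median of nuclear genes for photosystem, light-harvesting, electron transport and Rubisco proteins differed in sign from that of the chloroplast entries. Of 40 tested, 11 lay below 0 and 29 above, with a median of 0.17. The libraries disagreed, at -0.15 in PORI rpt2a replicate 1 and 0.42 in replicate 2 relative to PORI. The nuclear median turned to -0.08 with scaling to the total of the 3 tables, where the chloroplast entries were at -0.67 and all genes at -0.25, and to -0.07 without PORI rpt2a replicate 2. With edgeR and with DESeq2, 0 nuclear genes of the list passed the threshold, against 0.0247% and 556 of all 8110 tested genes. At an unadjusted edgeR p under 0.05 there were 2 of 40, against 23% of all tested genes. The difference between the nuclear and the chloroplast genes was not tested.

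Reads of the photosynthesis genes were spread over all lengths from 18 to 26 nt, and were shorter in PORI rpt2a. The mean length was 22.23 and 21.99 nt in PORI and 21.90 and 21.07 nt in PORI rpt2a. The share of 18 to 20 nt reads was 27.9% and 31.3% in PORI, against 32.3% and 46.4% in PORI rpt2a, and that of 25 to 26 nt reads was 22.6% and 19.7% against 18.2% and 11.1%. The groups did not overlap for either class (exact permutation p = 0.333 each), but PORI rpt2a replicate 1 lay within about 2 percentage points of PORI replicate 2 and only replicate 2 was far from the rest.

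A like shift was seen in the rest of the gene table. Outside the chloroplast, 18 to 20 nt reads made up 26.5% and 30.35% in PORI, against 30.28% and 41.2% in PORI rpt2a, where the groups overlapped, and in the other chloroplast genes 36.8% and 42.4% against 44.4% and 55.9%. Outside the chloroplast, 21 nt reads formed a peak of 21.9% and 20.7% in PORI, against 20.4% and 19.2% in PORI rpt2a. The photosynthesis genes had no such peak, with 12.4% and 13.2% of 21 nt in PORI, against 13.4% and 14.1% in PORI rpt2a.

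Counted length by length, the photosynthesis genes' share of gene counts was lower in PORI rpt2a in the mean at each of the 9 lengths. At 18 nt it was 1.62% and 1.39% in PORI, against 1.28% and 0.874% in PORI rpt2a. At 24 nt it was 1.45% and 1.37% against 1.11% and 0.715%. The groups overlapped at 19, 23 and 25 nt.

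**Figure D4:**
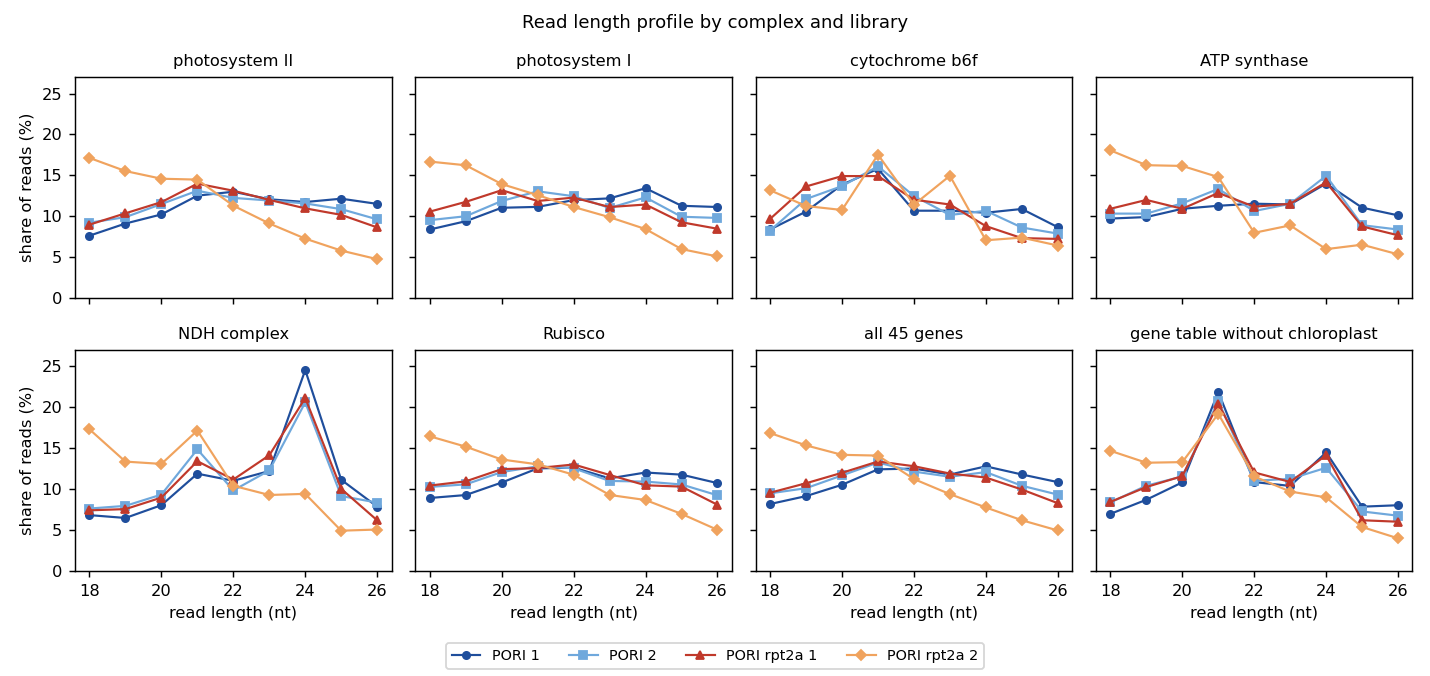
Share of reads, in percent, at each length from 18 to 26 nt for each complex, for all 45 photosynthesis entries and for the gene table without chloroplast genes, with 1 line per library. The NDH complex has a peak at 24 nt in 3 libraries, of 20.6 to 24.5%, which is 9.42% in PORI rpt2a replicate 2, while the highest share of any other complex in those 3 libraries is 16.1%, at 21 nt in the cytochrome b6f complex.

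The NDH complex was the one complex with a marked peak at 24 nt. Its 24 nt share was 24.5% and 20.6% in PORI, against 21.1% and 9.42% in PORI rpt2a, so PORI rpt2a lay on both sides of PORI replicate 2. The ATP synthase had 14.0% and 14.9% at 24 nt in PORI, against 14.2% and 5.99% in PORI rpt2a. For all 45 entries the 24 nt share was 12.8% and 12.1% in PORI, against 11.4% and 7.76% in PORI rpt2a.

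These peaks came from single genes. By a rule chosen after the profiles were seen, a gene with at least 100 PORI counts in all was said to have a dominant length where at least 25% of them were of 1 length. Of 41 entries with enough counts 6 met it, namely ndhK, ndhF and atpI at 24 nt, ndhH at 25 nt, and psbI and psbN at 21 nt. The other 35 had between 12.3% and 21.6% of reads at their commonest length. Just inside the rule lay psbN at 27.6% and just outside it the ndhB copies at 21.6% and 20.9%.

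ndhK had the sharpest profile. 24 nt reads were 458 of 737 counts (62.1%, 95% Wilson interval 58.6 to 65.6%) and 252 of 467 counts (54.0%) in PORI, and 221 of 400 (55.3%) and 22 of 85 (25.9%, 17.8 to 36.1%) in PORI rpt2a. Replicate 1 of PORI rpt2a was like PORI, and replicate 2 was lower by more than counting error. The 24 nt share was also lowest in that library elsewhere. In the other entries it was 12.3% and 11.7% in PORI, against 11.1% and 7.69% in PORI rpt2a. Outside the chloroplast it was 14.5% and 12.6% in PORI, against 14.1% and 8.99% in PORI rpt2a. In ndhF, 24 nt reads made up 36.8% and 40.6% in PORI, against 30.02% and 16.7% in PORI rpt2a. Its 23 nt reads made up 30.5% and 28.4% in PORI, against 36.1% and 12.5% in PORI rpt2a. In atpI, 24 nt reads made up 36.1% and 47.2% in PORI, against 34.4% and 8.70% in PORI rpt2a, the last being 4 of 46 counts.

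The 21 nt peaks did not follow that course. In psbI, 21 nt reads made up 31.95% and 34.4% in PORI, against 39.4% and 49.1% in PORI rpt2a, the last being 187 of 381 counts (95% Wilson interval 44.1 to 54.1%). Both PORI rpt2a libraries lay above PORI. In psbN, at 54.0 and 66.6 CPM in PORI, against 54.1 and 44.7 CPM in PORI rpt2a (log2 fold change -0.28 ± 0.30, edgeR adjusted p = 0.613, and -0.075 without PORI rpt2a replicate 2), 21 nt reads made up 26.5% and 28.9% against 25.7% and 25.8%, nearly level in the 4 libraries. ndhH had 25 nt shares of 36.4% and 25.1% in PORI, against 32.8% and 23.1% in PORI rpt2a, the last from 6 of 26 counts, and the groups overlapped. No exact permutation p for these 6 shares could fall below 0.333.

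**Figure D5:**
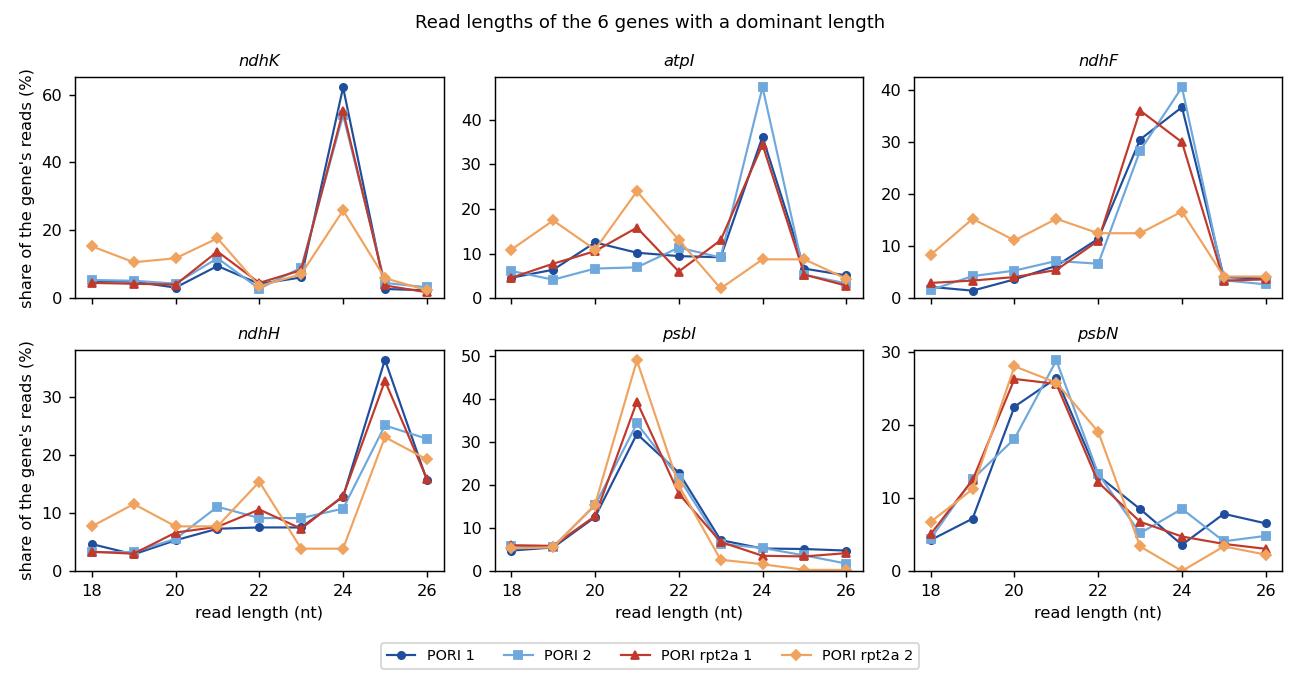
Share of each gene's reads, in percent, by read length from 18 to 26 nt for the 6 photosynthesis genes with a dominant length, with 1 line per library and a separate vertical scale in each panel. ndhK, atpI and ndhF peak at 24 nt in PORI and in PORI rpt2a replicate 1 (ndhF there at 23 nt) and far less in replicate 2, while psbI peaks at 21 nt in all 4 libraries.

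Without the 6 genes with a dominant length, the 24 nt peak of the NDH complex was gone, at 10.2% and 8.05% in PORI, against 10.96% and 6.06% in PORI rpt2a over its other 9 entries. The lower share of the complex did not depend on them. Those 9 entries held 3.13% and 3.10% of the remaining counts in PORI, against 2.54% and 2.39% in PORI rpt2a, and the groups did not overlap (exact permutation p = 0.333).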

How the data were processed

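The authors deposited raw counts of small RNA reads per gene, miRNA and transposable element. Per the file headers, the reads are split into 9 lengths, 18 to 26 nt. Per the submitters' processing notes, the tools were HTSeq, DESeq2, cutadapt 1.9.1, CASAVA 1.8.2 and FastQC 0.11.2, and the build was TAIR10. Strand use, the handling of reads with several matches, the aligner and the annotation release are not given in the sources used here.

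Counts summed over lengths were tested over the whole gene table with edgeR 4.0.16 in R 4.3.3. Genotype was the term of its quasi-likelihood test, scaling was by TMM, low genes were removed by filterByExpr at a count of 10 and a total of 15, and p-values were adjusted by Benjamini and Hochberg's method, with 0.05 as the threshold. DESeq2 1.42.0 was an alternative. The standard error of a log2 fold change was taken as its size over the square root of its F statistic. Shares were computed in Python 3.11.15 with scipy 1.17.1, numpy 2.4.6 and pandas 2.3.3, and compared by exact two-sided permutation tests. Intervals are 95% Wilson intervals, which cover counting error only, since reads carry no molecular identifiers. The code was tested on simulated data. Plots used matplotlib 3.10.9.

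Symbols of chloroplast genes follow the standard locus nomenclature. The RefSeq table (TAIR10.1) matched 0 of 134 chloroplast locus tags, and the order of the symbols was checked against its plastid genes, where 45 of 45 were in the same order. No sequences or gene lengths were used.

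The members and lists were chosen with earlier results of these data known. Fold changes are printed for the 5 entries with most counts, the 2 with most counts per complex, the 5 smallest p-values (none passed the threshold) and both ndhB copies, and also for psbI, psbL, psbM, psbN, atpH and ndhH, which were chosen after their values were seen. The rule on dominant lengths was also set after the data were seen.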

Additional observations from a re-analysis of the deposited data

How the results depend on the processing

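The median log2 fold change of the 45 entries was below 0 under every alternative run. It was -0.67 with scaling to the total of the 3 tables, a setting that also moved the median of all genes from -0.036 to -0.25, -0.54 for 21 to 24 nt reads alone, and -0.50 to -0.33 with 1 library left out. The replicate number as a block gave -0.53, 0 of 45 entries and 596 genes called. Replicate numbers were not shown to pair the libraries (correlation of deviations 0.17 over 8110 genes), so the block was not used elsewhere. The count of all genes called, 2 in the reported fit, was 556 with DESeq2, 445 without nuclear rRNA, tRNA, snoRNA and snRNA genes, 669 with no filter, 0 with at least 50 counts, 0 for 21 to 24 nt reads, 0 for 18 to 20 nt reads, and 18 to 2718 with 1 library left out. Over the latter, entries called lower ranged from 0 to 13 and higher from 0 to 1. Medians by complex moved by more than the spread between replicates, with the total of the 3 tables, to -0.53 (photosystem II), -0.44 (photosystem I), -0.78 (ATP synthase) and -0.85 (NDH). For 21 to 24 nt reads they were -0.47, -0.45 and -0.80 in the first 3, and for 18 to 20 nt reads -0.085 (photosystem I) and -0.39 (ATP synthase). With 1 library left out they ranged from -0.41 to -0.23 (photosystem II), -0.29 to -0.073 (photosystem I), -1.07 to -0.36 (cytochrome b6f), -0.56 to -0.37 (ATP synthase) and -0.73 to -0.40 (NDH). Signs turned for psbA (-0.19 with the total of the 3 tables, -0.11 for 21 to 24 nt reads), psbI (-0.26 with that total, -0.032 with the chloroplast total, -0.031 with no filter, -0.0058 with at least 50 counts, -0.27 for 18 to 20 nt reads), atpH (-0.18 with the total of the 3 tables) and psbM (-0.019 for 18 to 20 nt reads), and over fits that leave out 1 library psbI ran from -0.26 to 0.40, atpH from -0.40 to 0.67 and psbM from -0.44 to 1.19. The lowest of each was the fit without PORI rpt2a replicate 2. Shares turned too, in percentage points of PORI rpt2a minus PORI, for photosystem I (0.860 without psbA) and rbcL (1.098 without psbA). With 1 library left out, photosystem I ran from -0.301 to 0.0373, 22 nt reads from -1.098 to 0.471, 23 nt reads from -2.26 to 0.254 and the 25 nt share of ndhH from -8.49 to 2.85. The nuclear photosynthesis genes were at -0.075 with the total of the 3 tables and ran from -0.073 to 0.47 with 1 library left out. The causes were not tested. In the shallowest library psbT, petL and psbL had 0, 3 and 7 counts, so their values there carry a wide counting error.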

Other observations

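Genes that are transcribed together were also taken as groups, since their fragments can come from 1 precursor. In the psbB unit, which joins the photosystem II genes psbB, psbT and psbH with petB and petD of the cytochrome b6f complex, 5 of 5 genes had both PORI rpt2a libraries below both PORI libraries, against 29.6% of all tested genes, with a median log2 fold change of -0.56. In the psbE unit this held for 4 of 4 genes, with a median of -0.49, which was -0.19 without PORI rpt2a replicate 2. Without TMM factors it held for 3 of 4 genes of that unit, against 2795 of all 8110 tested genes. The unit of ndhC, ndhK and ndhJ had a median of -0.93. The unit from atpI to atpA had -0.67 (-0.36 without PORI rpt2a replicate 2), the pair atpB and atpE -0.44, and the unit from ndhD to ndhH, which also holds psaC, -0.43 (-0.27 without that library). psaA with psaB had -0.23 (-0.15 without that library), and psbD, psbC and psbZ had -0.17 (-0.032 without PORI replicate 2).

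Members of 1 unit did not move in step in PORI rpt2a replicate 2. In the atpI unit, relative to the other PORI rpt2a library, the CPM of atpH was higher, at 146 against 68.4, while that of atpF was lower, at 25.6 against 85.7. In the psbE unit, psbJ stood at 108 and 96.9 CPM in PORI rpt2a replicates 1 and 2, and psbL at 41.9 and 3.51 CPM. These genes were chosen after their values were seen and the differences were not tested.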
